A study of Mus musculus with 6 samples.

Results

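The mitosis and kinetochore genes described here are 36 genes chosen by symbol, of 35602 genes in the count table. They encode the cyclins and kinases that start mitosis, the complexes that attach chromosomes to the spindle, the checkpoint that watches this attachment, and the motors and scaffolds that pull the chromosomes and the daughter cells apart. All 36 were found in the count table and in both tables of the replicate 1 pair, and all 36 passed the filter on low counts, which left 16269 genes to test.

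When a T cell meets its antigen and a costimulatory signal it leaves rest, grows and enters rapid rounds of division. Genes for mitosis are nearly silent in resting cells and are transcribed late in each cycle, in G2 and early M phase, so their RNA in a culture follows how many cells are passing through these phases. In bulk RNA, fewer cells in G2 and M and less of these RNAs in each such cell cannot be told apart.

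CD4+ T cells, purified from mouse spleen by a kit that per the methods of the study selects CD4 T cells, were stimulated with anti-CD3/CD28 antibodies, and RNA was collected at 72 h. One group received MAPK13-IN-1, an inhibitor of the p38 family kinase encoded by *Mapk13*, and the other its solvent DMSO, with 3 libraries in each group. For replicates 2 and 3 the labels give the genotype as WT, the dose as 17.1 µM or 0.1 µL of DMSO, and the time of addition as after day 1, while the series design speaks of 72 h with inhibitor or DMSO. No genotype or dose is labelled for the replicate 1 pair, the sources used here do not tie a strain or age of mice to these cultures, and no source says whether the libraries came from separate mice or cultures. P-values therefore measure only the spread between libraries, which may be technical. Replicates 2 and 3 are read counts. The DMSO libraries held 26874805 and 28487403 counts, and the inhibitor libraries 33854760 and 32617702. The pair called replicate 1, whose titles carry no number, came from another library kit and is given in a unit read here as FPKM (fragments scaled by transcript length and library size), with no replicate and no test.

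The cell label was checked against marker genes. *Cd4*, chosen after its values were seen, stood at 275 and 276 CPM (counts scaled to library size) with DMSO and 267 and 283 with the inhibitor. The 8 measured genes of the CD4 T cell list summed to 1756 and 1782 CPM with DMSO and 1100 and 1211 with the inhibitor. *Cd5* had the most counts of the list with DMSO, and *Cd4* with the inhibitor. T cell genes were thus present in every library, and so were genes of B cells, which are not usual in CD4+ T cells. The 12 B cell genes summed to 1125 and 1099 CPM with DMSO and 1390 and 1404 with the inhibitor in replicates 2 and 3, where *Pax5*, a B cell transcription factor, had the most counts with the inhibitor, and to 54.2 and 37.6 FPKM in the replicate 1 pair. The CD8 T cell pair of genes summed to 11.2, 10.4, 5.76 and 8.16 CPM in the same order of libraries, and the NK cell list to between 1.67 and 2.46 CPM. For DMSO and the inhibitor of the replicate 1 pair, the CD8 T cell genes summed to 3.49 and 8.39 FPKM and the NK cell genes to 0.853 and 5.10 FPKM, the inhibitor library being the higher one in both.

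Taken over all 36 genes, RNA for mitosis was lower with the inhibitor. The 36 genes summed to 2476 and 2377 CPM in the DMSO libraries and to 1531 and 2101 CPM in the inhibitor libraries. The sum in the replicate 1 pair was 1395 FPKM for DMSO and 758 FPKM for the inhibitor. The inhibitor libraries were the lower ones in each of these comparisons, and they also differed more from one another than the DMSO libraries did.

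Of the 36 genes, 29 were lower with the inhibitor at an adjusted p-value under 0.05 in edgeR's quasi-likelihood test, where 32.3% of all genes tested were lower, and 1 was higher, where 31.5% of all genes were higher. The other 6 did not pass. The median log2 fold change of the 36 genes was -0.55, beside 0.012 over all genes tested. In 29 of them both inhibitor libraries lay below both DMSO libraries, which held for 41.4% of all genes tested. In this test falls and rises were about equally common over all genes tested, while 80.6% of the 36 genes fell and 2.78% rose.

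**Figure D1:**
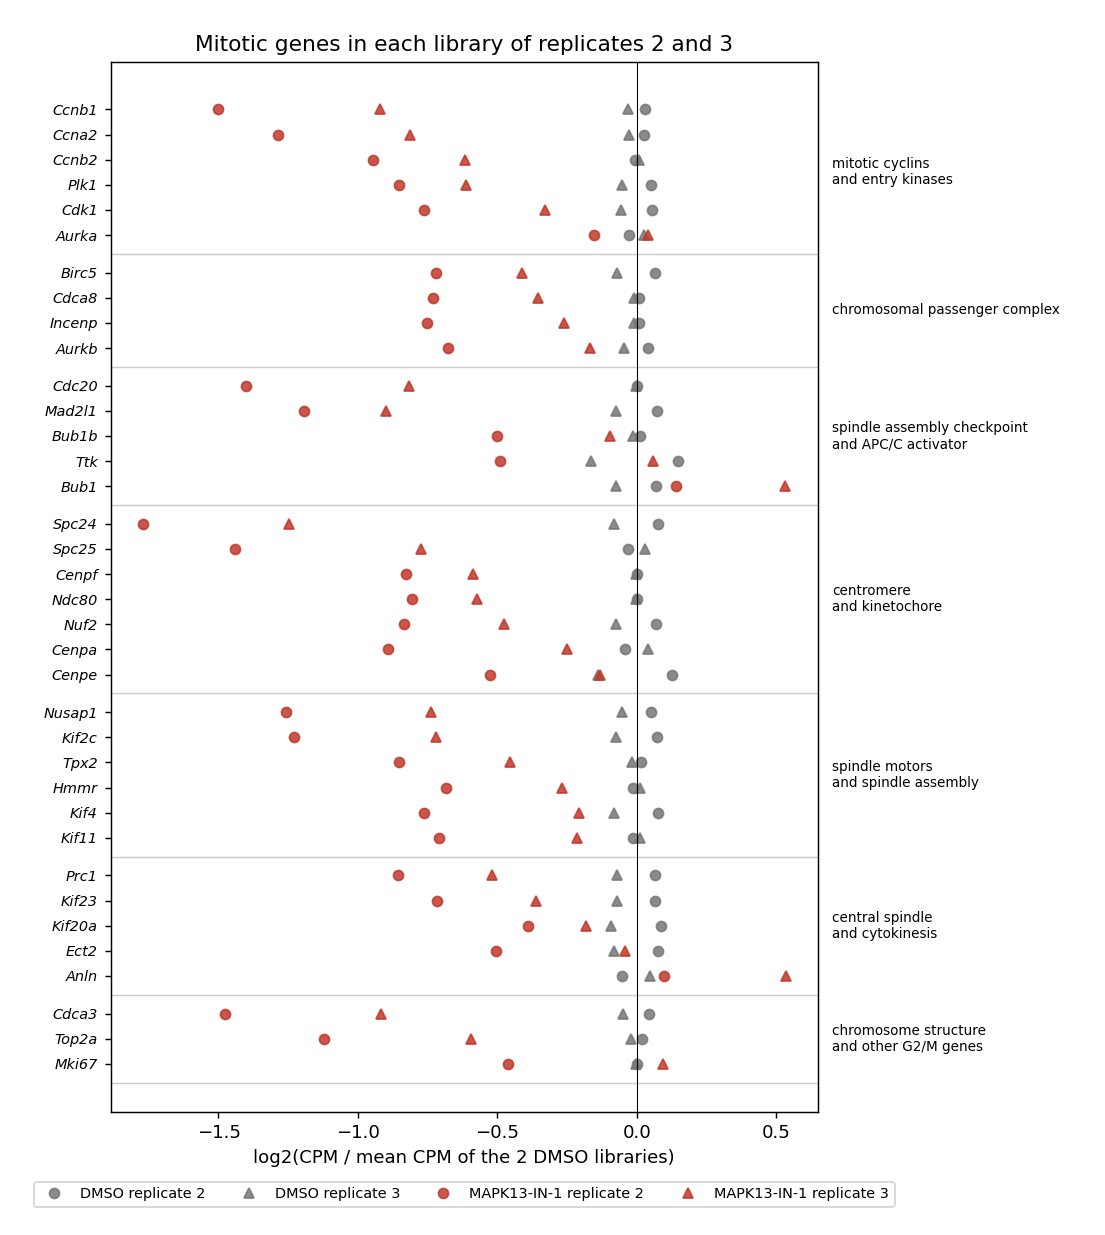
Each row is 1 of the 36 genes, grouped by role, and each point is 1 library of replicates 2 and 3. The horizontal axis is the log2 ratio of the library's CPM to the mean of the 2 DMSO libraries; inhibitor replicate 2 (red circle) lies left of inhibitor replicate 3 (red triangle) in all 36 rows, and *Bub1* and *Anln* are the rows where both red points lie right of both grey points.

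The 2 inhibitor libraries stood apart from each other. All 36 genes were higher in inhibitor replicate 3 than in inhibitor replicate 2, by a median ratio of 1.35 (range 1.14 to 1.59), while 51.3% of all genes tested were higher in replicate 3. Between the DMSO libraries the same ratio had a median of 0.951 and ran from 0.807 to 1.07. The fold changes therefore rest on DMSO values that lay close together and inhibitor values that did not. Without inhibitor replicate 2 the median log2 fold change was -0.39, and without inhibitor replicate 3 it was -0.79. Fits with a library left out have a lone library in a group and take their spread from the other group. Only their effect sizes are therefore given.

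Mitotic entry is driven by cyclin-dependent kinase 1 (*Cdk1*) bound to A- and B-type cyclins, with the kinases *Plk1* and *Aurka* switching the complex on and building the spindle poles. Here 5 of the 6 genes of this group fell, where 32.3% of all genes tested did. *Ccnb1*, the cyclin B1 whose destruction ends mitosis, stood at 33.4 and 32.0 CPM with DMSO and at 11.6 and 17.3 CPM with the inhibitor. These groups did not overlap, and the level was 2.27-fold lower (log2 fold change -1.18, SE 0.155, edgeR adjusted p = 7.44e-05). *Ccna2*, the cyclin A2 that acts in S phase and G2, stood at 83.9 and 80.9 CPM against 33.8 and 46.9 CPM. It was 2.04-fold lower (log2 fold change -1.03, SE 0.123, edgeR adjusted p = 3.89e-05). *Ccnb2* and *Plk1* fell less, with log2 fold changes of -0.77 and -0.73, and *Cdk1* itself least of the 5, from 56.2 and 52.0 CPM to 31.9 and 43.1 CPM (log2 fold change -0.53, SE 0.122, edgeR adjusted p = 0.0032). Without inhibitor replicate 2 the value for *Cdk1* was -0.33. In replicates 2 and 3 the cyclin subunits were thus lower by more than the kinase they bind. The difference between these folds was not tested. In the replicate 1 pair the log2 ratios of *Cdk1*, *Ccnb1* and *Ccnb2* lay close together, at -0.75, -0.80 and -0.83. That of *Ccna2* was -1.23.

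*Aurka*, the centrosome kinase that activates *Plk1*, was the member of this group that did not pass. It stood at 29.3 and 30.3 CPM with DMSO and 26.8 and 30.7 CPM with the inhibitor, and the groups overlapped (log2 fold change -0.054, SE 0.0949, edgeR adjusted p = 0.638), its sign turning to 0.027 with upper-quartile factors and to 0.071 with library totals. *Aurka* was also among the genes closest to parity in the replicate 1 pair, at 29.5 FPKM for DMSO and 24.3 FPKM for the inhibitor.

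The chromosomal passenger complex joins the kinase *Aurkb* to its scaffold *Incenp* and to *Birc5* (survivin) and *Cdca8* (borealin), which carry it to the centromere and later to the midzone, where it corrects faulty attachments and prepares the cleavage furrow. All 4 subunits fell, where 32.3% of all genes tested did. *Incenp* stood at 105 and 104 CPM with DMSO and 61.9 and 87.1 CPM with the inhibitor (log2 fold change -0.49, SE 0.124, edgeR adjusted p = 0.00571), a fall that did not pass with DESeq2 (adjusted p = 0.0977). *Birc5* stood at 51.4 and 46.8 CPM against 29.8 and 36.9 CPM (log2 fold change -0.56, SE 0.106, edgeR adjusted p = 0.000925). The log2 fold changes of the other subunits were -0.53 for *Cdca8* and -0.40 for *Aurkb*. Differences between the subunits were not tested. Without inhibitor replicate 2 the values were -0.17 for *Aurkb*, -0.26 for *Incenp* and -0.35 for *Cdca8*, and without inhibitor replicate 3 they were -0.68 for *Aurkb* and -0.76 for *Incenp*. With library totals in place of TMM the fall of *Aurkb* was -0.27 and no longer passed (edgeR adjusted p = 0.0779). Nor did *Aurkb* pass against a fold of 1.2 (edgeR adjusted p = 0.112). Together the 4 genes stood at 208 FPKM for DMSO and 108 FPKM for the inhibitor in the replicate 1 pair.

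The spindle assembly checkpoint holds a cell in metaphase until every kinetochore is attached, by keeping *Cdc20*, the activator of the anaphase-promoting complex (APC/C), in check. Its members split. *Cdc20* stood at 45.1 and 45.0 CPM with DMSO and at 17.1 and 25.6 CPM with the inhibitor, 2.11-fold lower (log2 fold change -1.08, SE 0.150, edgeR adjusted p = 0.000115). *Mad2l1*, whose protein binds and blocks *Cdc20*, stood at 43.7 and 39.5 CPM against 18.2 and 22.3 CPM, 2.05-fold lower (log2 fold change -1.04, SE 0.110, edgeR adjusted p = 1.64e-05). RNA of both genes was thus lower, and neither gene overlapped between groups.

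The checkpoint kinases had smaller values than *Mad2l1* in replicates 2 and 3, with no test of the difference. *Bub1b* (BubR1) stood at 82.3 and 80.9 CPM with DMSO and 57.6 and 76.3 CPM with the inhibitor, a small fall (log2 fold change -0.28, SE 0.109, edgeR adjusted p = 0.0412). It was -0.51 without inhibitor replicate 3 and -0.10 without inhibitor replicate 2. The fall did not pass with upper-quartile factors (edgeR adjusted p = 0.11), library totals (edgeR adjusted p = 0.205), at least 10 counts in every library (edgeR adjusted p = 0.0663) or against a fold of 1.2 (edgeR adjusted p = 0.31). *Ttk* (Mps1), the kinase that recruits the others to unattached kinetochores, stood at 16.1 and 13.0 CPM against 10.3 and 15.1 CPM, with overlapping groups (log2 fold change -0.19, SE 0.176, edgeR adjusted p = 0.363). Leaving out inhibitor replicate 3 gave *Ttk* a value of -0.50, and leaving out inhibitor replicate 2 turned its sign, to 0.061. Without DMSO replicate 2 it was -0.042. The log2 ratios of the replicate 1 pair were -0.92 for *Bub1b*, -0.91 for *Ttk* and -0.80 for *Mad2l1*, so the order seen in replicates 2 and 3 was not found there.

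*Bub1*, the kinase that marks centromeric chromatin and gathers the checkpoint at the kinetochore, was the 1 gene of the 36 that rose. It stood at 42.3 and 38.3 CPM with DMSO and at 44.4 and 58.3 CPM with the inhibitor, so that both inhibitor libraries lay above both DMSO libraries, the nearer by little (log2 fold change 0.35, SE 0.118, edgeR adjusted p = 0.0238). The size of the rise depended on single libraries. It was 0.53 without inhibitor replicate 2, 0.14 without inhibitor replicate 3 and 0.27 without DMSO replicate 3. *Bub1* was lower with the inhibitor in the replicate 1 pair, at 8.47 FPKM against 13.4 FPKM.

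The kinetochore is built on nucleosomes that carry the histone H3 variant encoded by *Cenpa*, and its outer layer grips microtubules through the Ndc80 complex of *Ndc80*, *Nuf2*, *Spc24* and *Spc25*. Of the 7 genes in this group 6 fell, where 32.3% of all genes tested did. *Spc24* had the largest fall of all 36 genes. It stood at 48.9 and 43.9 CPM with DMSO and at 13.6 and 19.5 CPM with the inhibitor, 2.80-fold lower (log2 fold change -1.49, SE 0.144, edgeR adjusted p = 8.98e-06). *Spc25*, its partner at the end of the complex that docks on the inner kinetochore, stood at 26.3 and 27.5 CPM against 9.92 and 15.7 CPM (log2 fold change -1.07, SE 0.172, edgeR adjusted p = 0.000317). The microtubule-binding end had smaller values. *Ndc80* stood at 31.4 and 31.3 CPM against 17.9 and 21.0 CPM (log2 fold change -0.69, SE 0.102), and *Nuf2* had a log2 fold change of -0.65 (SE 0.128).

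The 4 subunits of 1 complex thus spanned log2 fold changes from -1.49 to -0.65, with no test of the differences between them. The order was another in the replicate 1 pair. There *Spc24* again had the largest fall of the 4, from 37.7 to 15.6 FPKM, but *Spc25* had the smallest, from 29.1 to 21.2 FPKM, with log2 ratios of -0.70 for *Ndc80* and -0.71 for *Nuf2* between them. *Cenpa* stood at 37.6 and 39.7 CPM with DMSO and 20.9 and 32.5 CPM with the inhibitor (log2 fold change -0.54, SE 0.163, edgeR adjusted p = 0.0143). Its value was -0.25 without inhibitor replicate 2 and -0.90 without inhibitor replicate 3. *Cenpf*, which encodes a large protein of the outer corona, stood at 33.4 and 33.4 CPM against 18.8 and 22.2 CPM (log2 fold change -0.70, SE 0.101, edgeR adjusted p = 0.000148). *Cenpe*, a kinesin that carries chromosomes to the spindle equator, did not pass, at 45.7 and 38.0 CPM against 29.1 and 38.2 CPM (log2 fold change -0.31, SE 0.130, edgeR adjusted p = 0.0543). The *Cenpe* groups overlapped by the margin between DMSO replicate 3 and inhibitor replicate 3. Its log2 fold change was -0.45 without DMSO replicate 3 and -0.53 without inhibitor replicate 3. It was -0.13 without inhibitor replicate 2 and -0.19 without DMSO replicate 2. With no filter on low counts *Cenpe* passed (edgeR adjusted p = 0.015).

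Spindle motors and assembly factors push the poles apart, depolymerize microtubules at the kinetochore, move chromosome arms and nucleate microtubules around chromatin. All 6 genes of this group fell, where 32.3% of all genes tested did. *Nusap1*, which bundles microtubules near chromosomes, stood at 76.3 and 70.9 CPM with DMSO and at 30.8 and 44.2 CPM with the inhibitor (log2 fold change -0.97, SE 0.134, edgeR adjusted p = 0.000109). *Kif2c*, the depolymerase MCAK, stood at 28.7 and 25.9 CPM against 11.6 and 16.6 CPM (log2 fold change -0.95, SE 0.149, edgeR adjusted p = 0.000262). *Tpx2*, the activator of the *Aurka* kinase on the spindle, followed at 88.1 and 86.2 CPM against 48.3 and 63.5 CPM (log2 fold change -0.64, SE 0.108, edgeR adjusted p = 0.000435). *Tpx2* was thus lower where its kinase partner *Aurka* was not called.

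The plus-end motor *Kif11* (Eg5), needed for a bipolar spindle, stood at 104 and 105 CPM with DMSO and 63.8 and 90.1 CPM with the inhibitor (log2 fold change -0.44, SE 0.125, edgeR adjusted p = 0.0102). The chromokinesin *Kif4* and the hyaluronan-mediated motility receptor *Hmmr*, a spindle assembly factor, had log2 fold changes of -0.46 and -0.46. Without inhibitor replicate 2 the values were -0.21 for *Kif11*, -0.20 for *Kif4* and -0.27 for *Hmmr*, and without inhibitor replicate 3 they were -0.72 for *Kif11* and -0.77 for *Kif4*. Some calls depended on the setting. *Kif11* did not pass with DESeq2 (adjusted p = 0.145), and *Kif4* did not pass with library totals (edgeR adjusted p = 0.0621). Against a fold of 1.2 neither *Kif11* (edgeR adjusted p = 0.0621) nor *Kif4* (edgeR adjusted p = 0.0789) passed. *Kif11* was the lowest of the 6 relative to DMSO in the replicate 1 pair, with a log2 ratio of -1.19.

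After anaphase, antiparallel microtubules are bundled by *Prc1*, the kinesins *Kif23* and *Kif20a* bring cytokinesis factors to the midzone, and *Ect2* and *Anln* (anillin) set up and anchor the contractile ring. Of these 5 genes 3 (60%) fell, where 32.3% of all genes tested did. *Prc1* stood at 48.4 and 44.1 CPM with DMSO and at 25.6 and 32.3 CPM with the inhibitor (log2 fold change -0.68, SE 0.111, edgeR adjusted p = 0.000362). *Kif23* stood at 39.0 and 35.5 CPM against 22.7 and 29.0 CPM (log2 fold change -0.53, SE 0.117, edgeR adjusted p = 0.00257). The fall of *Kif20a* was among the smallest that passed, from 38.9 and 34.4 CPM to 28.0 and 32.3 CPM (log2 fold change -0.28, SE 0.0999, edgeR adjusted p = 0.0297). It did not pass with DESeq2 (adjusted p = 0.0805), with upper-quartile factors (edgeR adjusted p = 0.0931), with library totals (edgeR adjusted p = 0.186), with at least 10 counts in every library (edgeR adjusted p = 0.053) or against a fold of 1.2 (edgeR adjusted p = 0.311). With 1 library left out, the log2 fold change of *Kif20a* ran from -0.39 to -0.18.

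The ring genes *Ect2* and *Anln* did not pass. *Ect2*, the exchange factor that activates RhoA at the furrow, stood at 33.3 and 29.9 CPM with DMSO and 22.3 and 30.7 CPM with the inhibitor, with overlapping groups (log2 fold change -0.26, SE 0.136, edgeR adjusted p = 0.125). The value was -0.34 without DMSO replicate 3 and -0.51 without inhibitor replicate 3. It was -0.041 without inhibitor replicate 2 and -0.19 without DMSO replicate 2. *Anln* stood at 14.9 and 15.9 CPM with DMSO and at 16.5 and 22.3 CPM with the inhibitor (log2 fold change 0.33, SE 0.142, edgeR adjusted p = 0.0634). Both inhibitor libraries of *Anln* lay above both DMSO libraries, as for *Bub1*. Its log2 fold change was 0.53 without inhibitor replicate 2 and 0.089 without inhibitor replicate 3. *Anln* passed with upper-quartile factors (edgeR adjusted p = 0.0226), library totals (edgeR adjusted p = 0.0139), no filter (edgeR adjusted p = 0.0341) and at least 10 counts in every library (edgeR adjusted p = 0.0348), but not with RLE factors (edgeR adjusted p = 0.052) or DESeq2 (adjusted p = 0.126). *Anln* was lower with the inhibitor in the replicate 1 pair, at 3.45 FPKM against 5.83 FPKM.

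*Top2a* and *Mki67* are both much used as proliferation markers, and of this pair *Top2a* alone passed in replicates 2 and 3. *Top2a*, the topoisomerase that untangles sister chromatids, stood at 489 and 475 CPM with DMSO and at 222 and 319 CPM with the inhibitor, 1.78-fold lower (log2 fold change -0.83, SE 0.126, edgeR adjusted p = 0.000206). *Mki67*, which coats mitotic chromosomes and keeps them apart, stood at 417 and 417 CPM with DMSO and at 303 and 445 CPM with the inhibitor. The inhibitor libraries lay on either side of the DMSO libraries, and no difference passed (log2 fold change -0.16, SE 0.132, edgeR adjusted p = 0.317).

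The value for *Mki67* rested on which inhibitor library was used. It was 0.095 without inhibitor replicate 2 and -0.47 without inhibitor replicate 3, values of opposite sign. Both markers were lower with the inhibitor in the replicate 1 pair, *Top2a* with a log2 ratio of -1.25 and *Mki67* at 37.5 against 71.7 FPKM. *Cdca3*, a factor in the destruction of the mitosis-delaying kinase Wee1, fell from 55.7 and 52.3 CPM to 19.4 and 28.6 CPM, 2.25-fold lower (log2 fold change -1.17, SE 0.145, edgeR adjusted p = 5.14e-05).

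Levels can be set beside each other between genes only per length, here as CPM per kilobase of all exons annotated for a gene. On this scale the level of *Top2a* was the highest of the 36 in DMSO, at a mean of 53.5 CPM per kilobase, followed by *Mki67* at 41.4 and *Aurkb* at 26.1. The lowest levels were those of *Anln*, at 1.70, and *Cenpf*, at 2.16. With the inhibitor *Mki67*, at 37.2, stood ahead of *Top2a*.

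In the replicate 1 pair all 36 genes were lower with the inhibitor, where 37.7% of all genes above 0 in either library were lower. The median log2 ratio of the 36 genes was -0.79 on the scale of log2(FPKM + 1), beside 0.041 over all genes, and it ran from -1.25 for *Top2a* to -0.27 for *Cenpa*. Past 1.5-fold lower were 29 of the 36 genes, where 4.02% of all genes were, and 0 were past 1.5-fold higher, where 9.74% of all genes were. With 1 library in each group this difference has no replicate check, and the scale understates changes of genes with low values.

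The 29 genes that passed as lower in replicates 2 and 3 were all below DMSO in the replicate 1 pair as well, a combination found in 18.1% of all genes tested. Across the 36 genes, which are not independent replicates, the log2 ratio of the replicate 1 pair and the log2 fold change of replicates 2 and 3 had a Pearson correlation of 0.348, beside 0.171 over 15825 genes tested. *Spc24* and *Ccna2* were among the larger falls in both. *Spc25* and *Cdc20*, among the larger falls in replicates 2 and 3, had log2 ratios of -0.44 and -0.53 in the pair. *Mki67* and *Ttk*, which did not pass in replicates 2 and 3, and *Bub1*, which rose there, were lower in the replicate 1 pair.

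**Figure D2:**
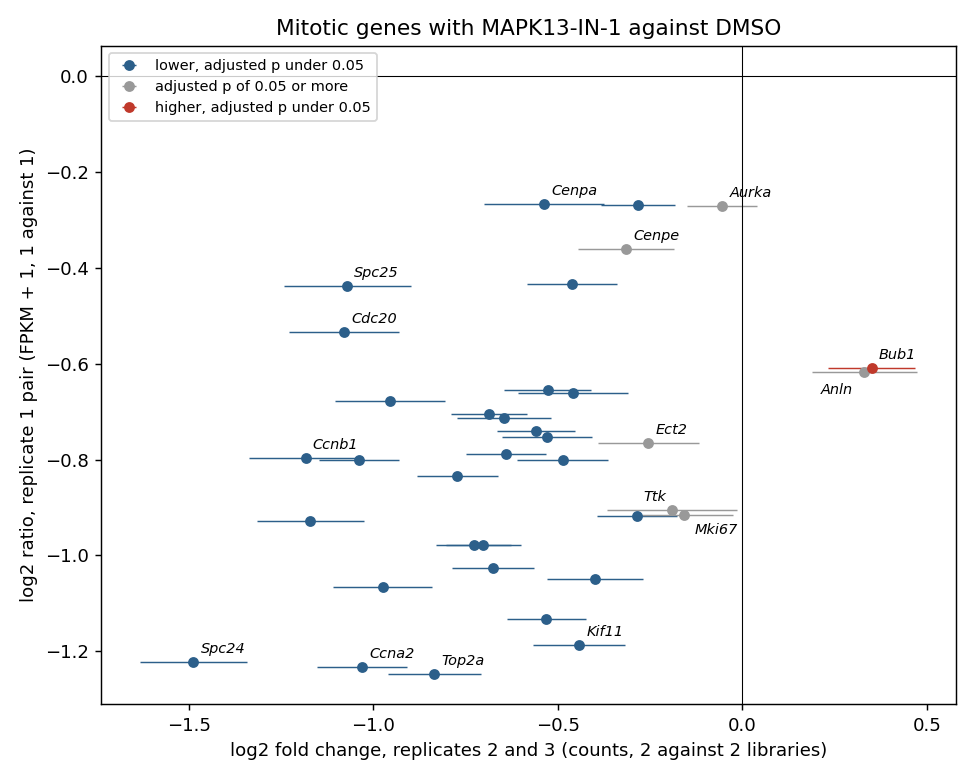
Each point is 1 of the 36 genes, with its log2 fold change in replicates 2 and 3 on the horizontal axis (bars are 1 SE) and its log2 ratio in the replicate 1 pair on the vertical axis. All 36 points lie below 0 on the vertical axis, and *Bub1* and *Anln* lie to the right of 0 on the horizontal axis.

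*Mapk13* itself, the gene of the inhibited kinase, was sparse. It had 79 and 74 counts with DMSO and 21 and 51 counts with the inhibitor, which is 3.06 and 2.72 CPM against 0.592 and 1.51 CPM (log2 fold change -1.47, SE 0.363, edgeR adjusted p = 0.0049). It went the other way in the replicate 1 pair, at 0.191 FPKM for DMSO and 3.28 FPKM for the inhibitor. A kinase inhibitor acts on the protein, so these RNA levels do not check the treatment.

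A wider set of 138 mitotic genes, none of them among the 36, was also tested. Of these 74 (53.6%) were lower, beside 32.3% of all genes tested, 17 (12.3%) were higher, beside 31.5%, and 47 did not pass, and their median log2 fold change was -0.28. Of the 138, 125 (90.6%) were lower in the replicate 1 pair, beside 37.7% of all genes. Of 32 genes of the inner centromere network and outer kinetochore 17 fell and 5 rose. *Cenpm*, a subunit of the inner network, stood at 20.7 and 19.0 CPM with DMSO and 3.97 and 5.93 CPM with the inhibitor, 4.02-fold lower (log2 fold change -2.01, SE 0.169, edgeR adjusted p = 3.41e-06). *Spdl1* (spindly), which brings dynein to kinetochores, rose from 25.4 and 23.7 CPM to 46.5 and 44.6 CPM (log2 fold change 0.89, SE 0.0840, edgeR adjusted p = 7.36e-06). The kinetochore lists thus held genes that fell and genes that rose.

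Of 7 further checkpoint genes 5 (71.4%) fell and 1 (14.3%) rose, beside 32.3% and 31.5% of all genes tested. *Trip13*, the ATPase that recycles the *Mad2l1* protein, fell most of the 7, with a log2 fold change of -1.26. Of 18 genes of the APC/C and its regulators 10 fell and 3 rose. The falls there were led by *Ube2c* and *Ube2s*, the ubiquitin-conjugating enzymes that work with it, at -1.31 and -1.20. Condensins, which compact chromosomes, fell in 5 of 8 genes with none rising, *Ncapd2* at -0.72. Of 12 cohesin and separase genes 4 (33.3%) were lower, close to the 32.3% of all genes tested, and 2 were higher. The largest fall among them was that of separase itself, *Espl1*, at -1.24.

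Of 26 regulators of mitotic entry and of G2/M transcription, activators and restrainers alike, 13 (50%) fell, 3 (11.5%) rose and 10 did not pass. The shares over all genes tested were 32.3% lower and 31.5% higher. *Foxm1*, a transcription factor of many G2/M genes, stood at 83.8 and 81.2 CPM with DMSO and at 22.8 and 33.9 CPM with the inhibitor, 2.91-fold lower (log2 fold change -1.54, SE 0.142, edgeR adjusted p = 6.23e-06). *Pkmyt1*, a kinase that restrains *Cdk1*, was 3.24-fold lower (log2 fold change -1.70), and *E2f4*, a partner of the repressors of cell cycle genes, was 2.27-fold lower (-1.18). *Cks2*, a small *Cdk1* subunit, was among the 3 that rose, at 0.51. Of 25 further kinesins, spindle and midbody genes 15 (60%) fell and 2 (8%) rose, beside 32.3% and 31.5% of all genes tested. They ran from *Knstrn* at -1.34 to *Kif2a* at 0.63. Of 10 centrosome genes 5 (50%) fell and 1 (10%) rose, beside the same shares of all genes tested. The centrosome kinase *Nek2* had the largest fall of the 138 genes, from 31.4 and 32.6 CPM to 5.27 and 7.08 CPM (log2 fold change -2.37, SE 0.136, edgeR adjusted p = 2.82e-07).

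**Figure D3:**
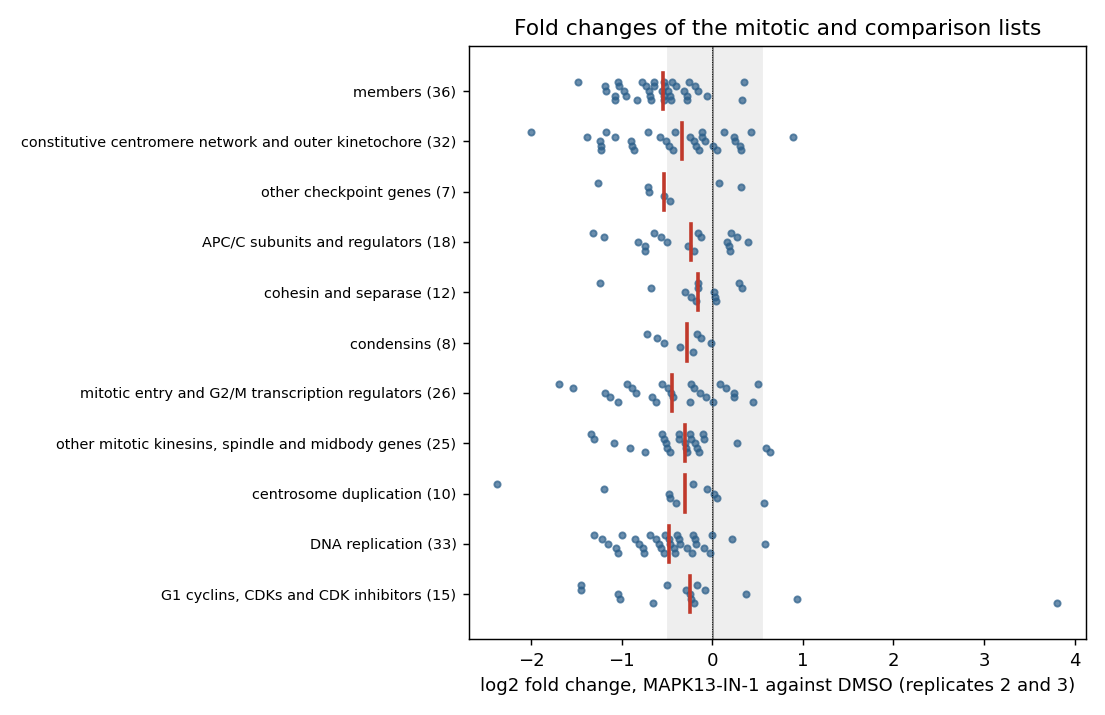
Each point is the log2 fold change of 1 gene in replicates 2 and 3, with the number of genes of each list in parentheses, and red bars are medians. The grey band spans the middle of all 16269 genes tested, from the lower quartile at -0.49 to the upper quartile at 0.55, with their median of 0.012 as a line, and the median of the 36 genes lies at -0.55.

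Falls were not confined to mitosis. Of 33 genes of DNA replication, the step before mitosis, 24 (72.7%) were lower and 1 (3.03%) was higher, beside 32.3% and 31.5% of all genes tested, with a median log2 fold change of -0.47. All 33 were lower in the replicate 1 pair, beside 37.7% of all genes. *Pcna*, the sliding clamp of the polymerases, stood at 369 and 351 CPM with DMSO and at 154 and 196 CPM with the inhibitor (log2 fold change -1.04, SE 0.0934, edgeR adjusted p = 5.1e-06). As with the mitotic genes, all 33 were higher in inhibitor replicate 3 than in replicate 2. Of 15 G1 cyclins, CDKs and CDK inhibitors 9 fell and 3 rose, where the shares over all genes tested were 32.3% and 31.5%, with *Cdk4* at -1.45 and *Ccnd1*, a D-type cyclin, at 3.81, from 1.55 and 2.13 CPM to 27.2 and 24.8 CPM. In the replicate 1 pair 8 of the 15 G1 genes were lower, beside 37.7% of all genes. Past 1.5-fold there, 3 were lower and 5 were higher, beside 4.02% and 9.74% of all genes. The difference between these lists and the 36 genes was not tested.

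Markers of other cells moved with the groups in replicates 2 and 3. Beside the B cell sums given above, the 10 erythroid genes summed to 10.1 and 9.86 CPM with DMSO and to 96.0 and 69.3 CPM with the inhibitor, *Hbb-bs* having the most counts with the inhibitor and *Epor* with DMSO. The 8 macrophage genes summed to 13.1 and 11.5 CPM against 44.2 and 36.5 CPM, with *Cd68* having the most counts in all 4 libraries. Of the tested genes of these lists, 7 of 12 B cell, 6 of 8 erythroid and 5 of 6 macrophage genes rose, where 31.5% of all genes did. Falls were seen in 3 B cell genes, *Vpreb3* and, named after their values were seen, *Fcer2a* and *Cd22*, in the erythroid gene *Epor*, and in 7 of 8 CD4 T cell genes, where 32.3% of all genes fell. The 6 neutrophil genes summed to 0.223, 0.211, 0.591 and 0.797 CPM, *Mpo* having the most counts with the inhibitor, with *S100a9* at 0 counts in all 4 libraries, which allows up to 0.112 CPM in the shallowest. For DMSO and the inhibitor in the replicate 1 pair, CD4 T cell genes summed to 1219 and 1124 FPKM, erythroid genes to 1.01 and 2.04 FPKM and macrophage genes to 2.96 and 9.17 FPKM, and the 36 mitotic genes were lower there as well. The part of these other cells in the fall of the mitotic genes was not tested.

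The 36 genes lie on 15 chromosomes, at most 6 of them on chromosome 2, so no single locus holds them. In GENCODE M21 on GRCm38, the exons of 9 of the 36 overlap those of another gene, in 7 cases a protein-coding gene on the opposite strand. The overlap is largest for *Kif20a* (chr18:34624613-34633277, plus strand), 29.3% of whose exon bases are shared with *Cdc23*, followed by *Kif4* with *Pdzd11* (15.1%) and *Ccna2* with *Exosc9* (12.5%). Whether the counts of replicates 2 and 3 used strand is not stated, so reads in such stretches cannot be told apart. The values of all members with an opposite-strand overlap are uncertain to that extent, *Prc1* with *Rccd1* (11.1%) among them. *Spc24*, at chr9:21755442-21760303 on the minus strand, and *Ccnb1*, at chr13:100778650-100786570 on the minus strand, share no exon bases with another annotated gene.

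Promoters are shown because most of the members fell and because late cell cycle genes are known to share 2 short elements. These are a cell cycle homology region (CHR) bound by the DREAM and MuvB complexes and CCAAT boxes bound by NF-Y. In RefSeq promoters of GRCm38.p6, which run from 250 bases before to 50 bases after the start of transcription, 30 of the 36 genes had 32 promoters. *Ccna2*, *Aurkb*, *Incenp*, *Spc24*, *Tpx2* and *Kif20a* had no entry. A stretch of 25 bases after the start was found in a GENCODE transcript of the gene for 27 of the 32 promoters. The *Mad2l1* promoter ends before its GENCODE gene model starts, so some starts differ between the 2 annotations. On either strand, TTTGAA, the usual CHR letters, stood in 78.1% of the 32 promoters, where 17.9% of all 32851 promoters and 13.3% of those of genes tested hold it. The variant TTCGAA stood in 9.38%, where 1.56% of all promoters hold it. CCAAT stood in 78.1%, where 37.4% of all promoters hold it. A CCAAT on the reverse strand can overlap a TTTGAA, as it does in *Cdca8*.

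The members were thus rich in both elements, and often in both at once. Because late cell cycle genes are known to share these elements, the choice of such genes made this likely beforehand. A CHR of either spelling together with CCAAT stood in 71.9% of the 32 promoters and in 7.52% of all promoters. In the wider mitotic lists the share was 30.1%, and in the DNA replication list 17.2%. The E2F letters TTTCCCGC or TTTGGCGC stood in 0 of the 32 promoters, in 14.3% of those of the wider mitotic lists, in 34.5% of those of the DNA replication list and in 1.56% of all promoters, with no test of these differences. A match is a description of letters and not evidence of binding.

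Among the 30 genes with a promoter entry, which leave out *Spc24*, members with and without the letters were compared by their medians only, with no test. The 24 genes with TTTGAA or TTCGAA had a median log2 fold change of -0.53, and the 6 without had a median of -0.81, the latter being *Ccnb1*, *Birc5*, *Mad2l1*, *Cenpe*, *Nuf2* and *Nusap1*. *Aurka* and *Mki67*, which did not pass, hold TTTGAA, and *Bub1*, which rose, holds TTCGAA.

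The stretch from 80 bases before to 30 bases after the start of transcription is printed for the member of each role with the largest fall among those that hold a CHR there, for *Bub1*, and for *Ccnb1*, the largest fall among promoters without one. Capitals mark TTTGAA, the variant TTCGAA and CCAAT on either strand, so that TTCAAA and also ATTGG are their reverse complements.
Ccnb2, chr9:70421525-70421634, minus strand: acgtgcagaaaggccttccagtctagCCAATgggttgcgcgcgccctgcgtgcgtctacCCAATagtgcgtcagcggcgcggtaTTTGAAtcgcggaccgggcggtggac
Cdca8, chr4:124936888-124936997, minus strand: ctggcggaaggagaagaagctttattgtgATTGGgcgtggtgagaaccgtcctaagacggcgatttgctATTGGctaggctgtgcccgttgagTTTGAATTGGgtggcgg
Cdc20, chr4:118437314-118437423, minus strand: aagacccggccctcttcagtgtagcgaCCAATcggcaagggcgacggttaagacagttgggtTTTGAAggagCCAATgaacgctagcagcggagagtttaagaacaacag
Spc25, chr2:69206184-69206293, minus strand: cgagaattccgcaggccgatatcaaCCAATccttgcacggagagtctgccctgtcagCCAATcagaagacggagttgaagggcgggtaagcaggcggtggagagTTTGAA
Hmmr, chr11:40733408-40733517, minus strand: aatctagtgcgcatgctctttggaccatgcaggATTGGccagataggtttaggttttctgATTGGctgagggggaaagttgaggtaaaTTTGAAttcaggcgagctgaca
Prc1, chr7:80294371-80294480, plus strand: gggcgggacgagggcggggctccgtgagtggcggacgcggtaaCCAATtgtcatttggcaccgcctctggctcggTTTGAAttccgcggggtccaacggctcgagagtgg
Top2a, chr11:99024160-99024269, minus strand: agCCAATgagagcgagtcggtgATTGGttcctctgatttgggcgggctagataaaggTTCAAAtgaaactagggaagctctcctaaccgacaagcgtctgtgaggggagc
Bub1, chr2:127831830-127831939, minus strand: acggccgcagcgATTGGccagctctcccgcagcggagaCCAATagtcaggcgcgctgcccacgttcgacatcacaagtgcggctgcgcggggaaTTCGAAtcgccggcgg
Ccnb1, chr13:100786457-100786566, minus strand: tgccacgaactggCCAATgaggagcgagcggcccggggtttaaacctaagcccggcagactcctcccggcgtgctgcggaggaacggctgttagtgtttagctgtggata
In every window printed except that of *Ccnb1*, which holds no CHR letters, at least 1 CCAAT on either strand lies upstream of the CHR letters, in *Bub1* as in the genes that fell.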

How the data were processed

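For replicates 2 and 3 the authors deposited raw counts per gene symbol, for 35602 genes. Their processing notes list fastp 0.21.0, HISAT2 2.1.0, StringTie 2.1.5 and DESeq2 1.30.1 with the build mm10, without saying what each did. The replicate 1 pair was deposited as a single value for each of 34714 genes, read here as FPKM, with FastQC, HISAT2 and the builds GRCm38 and mm10 listed in its notes. That unit is not named and was inferred: the values are not whole, sum to 405150 and 390729, and relative to CPM they fall with gene length (slopes of log2 ratio on log2 length of -0.73 and -0.83).

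The main test used edgeR 4.0.16 (R 4.3.3). Low counts were removed by filterByExpr (minimum count 10, minimum total 15), libraries were scaled by TMM, and 2 libraries were compared with 2 by the quasi-likelihood test with Benjamini-Hochberg adjustment over all 16269 genes tested, at 0.05. SE is the log2 fold change divided by the square root of F. The fit was tried on simulated data of 15338 genes. It recovered 84% of 100 genes changed by 0.5 in log2 and 100% of 100 genes changed by 1. Those data gave all libraries a common spread and changed few genes, unlike the real libraries. They therefore do not measure the error of the calls made here. CPM use TMM-scaled totals, and sums over lists use library totals. Replicate 1 log2 ratios use a pseudocount of 1. Role, wider, comparison and marker lists are hand-written. The members and lists were chosen with earlier results of these data known. Named beyond the 36 genes and *Mapk13* were, of each other list, at most the 3 smallest p-values, the largest rise and the largest fall among genes past 0.05, and for marker lists the most abundant gene and genes at 0. Outside this rule *Cd4*, *Fcer2a* and *Cd22* were named after their values were seen, and genes overlapping a member for their position.

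Alternatives were RLE and upper-quartile factors, library totals, no filter, at least 10 counts in every library, a block on replicate number, DESeq2 1.42.0, an adjusted p under 0.01, a test against a fold of 1.2, each library left out in turn, a pseudocount of 0.1, and at least 1 FPKM in both libraries. The libraries of each group were further apart than sampling noise allows (mean chi-square per gene 3.10 for DMSO and 9.65 for the inhibitor). The floor given for a count of 0 is 3 counts and covers counting error only.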

Additional observations from a re-analysis of the deposited data

Results flagged for a closer look

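*Bub1* and *Anln* went in opposite directions in the 2 sets of libraries. In replicates 2 and 3 both inhibitor libraries lay above both DMSO libraries, with log2 fold changes of 0.35 for *Bub1*, which passed, and 0.33 for *Anln*, which did not (edgeR adjusted p = 0.0634). Without inhibitor replicate 3 these were 0.14 for *Bub1* and 0.089 for *Anln*. In the replicate 1 pair the log2 ratios were -0.61 and -0.62. The difference between the sets was not tested, since the replicate 1 pair holds 1 library of each group. The library kit also differs between the sets, so kit and experiment cannot be told apart.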

How the results depend on the processing

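With every library in the fit, the number of the 36 genes that were lower ran from 23 at an adjusted p under 0.01 to 32 with the replicate block. Their median log2 fold change stayed negative under every alternative run, also with 1 library left out. The number higher was 1 in the main test. It was 2 with upper-quartile factors, 2 with library totals, 2 with no filter and 2 with at least 10 counts in every library, 0 at an adjusted p under 0.01 and 0 against a fold of 1.2, and from 0 to 3 when 1 library was left out, where the lone library is assumed to vary as the other group does. With the replicate block the counts were 32 lower and 2 higher, *Cenpe*, *Ect2* and *Mki67* passing as lower and *Anln* as higher beside those of the main test. Whether the numbers pair the samples is not known. The correlation of same-numbered deviations was -0.00641 over 16269 genes, which rests on 1 difference in each group and cannot settle it. A block on the numbers is only an alternative. Library totals moved the median of all genes by 0.13, and the median of the 36 genes to -0.42. Over all genes tested 5252 were lower and 5122 higher in the main test. These counts were 4633 and 5823 with upper-quartile factors, and 4302 and 6176 with library totals. Signs turned for *Aurka*, at 0.027 with upper-quartile factors and 0.071 with library totals, and without inhibitor replicate 2. With 1 library left out, log2 fold changes ran from -0.16 to 0.041 for *Aurka*, from -0.50 to 0.061 for *Ttk* and from -0.47 to 0.095 for *Mki67*, and the cause was not tested. With DESeq2 26 genes were lower, and against a fold of 1.2 24 were. In the replicate 1 pair 29 genes were past 1.5-fold lower with either pseudocount and with the minimum of 1 FPKM. With 2 libraries in each group, and inhibitor libraries that differed from each other in all 36 genes, small falls such as those of *Kif20a* and *Bub1b* are at the limit of what was measured.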
